A study of Mus musculus with 2 samples.

Results

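In female mouse embryonic stem cells of the F1 hybrid line F121-6, which has 129 and castaneus (CAS) parents, 552 of the 43941 genomic windows of 50 kb carried more open-chromatin counts from the 129 genome than from the CAS genome in each of 2 replicates. These windows were selected on the counts themselves: 129 minus CAS had to be 2 or more in replicate 1 and again in replicate 2. Their own allele counts are therefore given as a description, with no test. The assay was ATAC-seq, which reads accessible DNA as the places where a transposase could insert adapters, and every count was split by parental allele. Both replicates are of the same group: untreated cells of 1 line, kept with LIF and serum on mouse embryonic fibroblasts whose division had been blocked with mitomycin C. There is no other genotype or treatment, so the comparison is between the chromosome sets inside the same cells. Nothing in the labels says whether the replicates were separate cultures, and the strain of the feeder cells is not given in the sources used here.

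An F1 hybrid places both parental genomes in the same nucleus, where they meet the same transcription factors, so an allelic difference in accessibility is usually read as acting in cis, through the DNA or chromatin of that copy. Open chromatin marks active promoters, enhancers and insulators, and in stem cells much of it lies between genes. The 129 and CAS genomes come from different subspecies of the house mouse and differ at many positions, and those differences also allow fragments to be assigned to an allele.

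To show what kind of DNA the windows hold, promoters of protein-coding genes that start inside them were taken from RefSeq (GRCm38.p6, the assembly of mm10). Of the 552 windows, 183 held such a start, with 309 promoters of 249 genes. Printed here, 5′ to 3′ on the gene's own strand, are the 250 bases before the start. The first 4 belong to windows with no CAS count in either replicate, those of Mthfd1l at chr10:3972825-3973074 (plus strand), Slc35c1 at chr2:92459795-92460044 (minus strand), Ap1m2 at chr9:21312334-21312583 (minus strand) and Slc44a2 at chr9:21320469-21320718 (plus strand). The last 2 are the promoters of Col18a1 at chr10:77166531-77166780 and Gtf2i at chr5:134314761-134315010 (both minus strand), whose windows rank high by count. Capitals mark matches, on either strand, to the GC box GGGCGG, to the pentamer of the box named for its letters, CCAAT, or to the ETS-type motif CCGGAAG.
Mthfd1l: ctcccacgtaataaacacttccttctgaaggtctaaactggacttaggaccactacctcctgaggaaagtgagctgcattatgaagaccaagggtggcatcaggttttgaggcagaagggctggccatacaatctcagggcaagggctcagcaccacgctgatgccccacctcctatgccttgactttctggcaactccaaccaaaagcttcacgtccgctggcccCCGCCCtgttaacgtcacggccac
Slc35c1: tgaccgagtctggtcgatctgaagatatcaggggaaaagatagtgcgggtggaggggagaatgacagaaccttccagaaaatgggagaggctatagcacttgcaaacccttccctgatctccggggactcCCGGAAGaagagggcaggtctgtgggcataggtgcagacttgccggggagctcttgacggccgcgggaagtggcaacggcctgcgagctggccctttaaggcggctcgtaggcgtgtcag
Ap1m2: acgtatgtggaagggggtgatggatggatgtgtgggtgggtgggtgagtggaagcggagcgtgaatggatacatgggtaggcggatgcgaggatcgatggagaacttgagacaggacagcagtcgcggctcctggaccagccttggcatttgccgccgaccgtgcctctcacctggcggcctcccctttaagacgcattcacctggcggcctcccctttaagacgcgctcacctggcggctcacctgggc
Slc44a2: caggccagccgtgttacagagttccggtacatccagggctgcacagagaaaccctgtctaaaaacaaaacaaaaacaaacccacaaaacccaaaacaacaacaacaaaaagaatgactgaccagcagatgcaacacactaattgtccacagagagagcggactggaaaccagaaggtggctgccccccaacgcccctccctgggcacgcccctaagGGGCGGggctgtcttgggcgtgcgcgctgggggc
Col18a1: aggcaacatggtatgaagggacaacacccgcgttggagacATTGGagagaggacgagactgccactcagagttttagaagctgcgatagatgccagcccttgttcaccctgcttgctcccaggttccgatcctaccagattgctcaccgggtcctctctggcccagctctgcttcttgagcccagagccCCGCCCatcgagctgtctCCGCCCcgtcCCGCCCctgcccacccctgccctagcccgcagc
Gtf2i: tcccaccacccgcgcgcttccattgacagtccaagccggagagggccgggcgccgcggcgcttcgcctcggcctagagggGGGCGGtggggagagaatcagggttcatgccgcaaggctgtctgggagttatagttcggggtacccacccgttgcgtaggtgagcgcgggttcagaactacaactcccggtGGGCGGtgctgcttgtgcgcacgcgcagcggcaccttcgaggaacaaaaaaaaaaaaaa
These are reference letters of the C57BL/6J strain, so they show neither the 129 nor the CAS allele. GC boxes number 2 in the Gtf2i promoter, 3 in that of Col18a1, which also holds 1 CCAAT box, and 1 each in the printed ones of Mthfd1l and Slc44a2. The printed Slc35c1 promoter holds 1 ETS-type motif and the Ap1m2 promoter none of the motifs searched. Slc35c1 and Slc44a2 each have a second promoter in the same window, not printed: that of Slc35c1 (chr2:92460519-92460768) holds none of the motifs and that of Slc44a2 (chr9:21337578-21337827) holds 1 CCAAT box and no GC box.

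Promoters in the 129-higher windows were close to promoters elsewhere in base composition. Their median GC content over the 250 bases was 58.8%, against 56.4% over the 17774 promoters in all windows of the table and 57.2% over the 301 in the mirror set, the windows with CAS higher by 2 or more in both replicates. The median number of CpG dinucleotides was 12, against 11 and 11. In windows with 4 or more counts, the lowest sum the rule can pass, the medians were 58.4% and 13. Of the 309 promoters 161 (52.1%) held a GC box, compared with 44.8% of all promoters, 50.8% of those in the mirror set and 50.8% of the 13339 in windows with 4 or more counts. A CCAAT box was found in 32.4% (34.7% of all and 35.4% in windows with 4 or more counts). In the same order, a TATA box (TATAAA) was found in 7.12% (11% and 8.6%) and an E-box (CACGTG) in 6.15% (6.93% and 7.53%). An ETS-type motif was found in 7.44% (9.48% and 10.8%). The cAMP response element (TGACGTCA) was found in 1.62% (2% and 2.27%) and the octamer bound by POU factors (ATGCAAAT) in 0.971% (1.52% and 1.39%). The element of oestrogen-related receptors (TCAAGGTCA) was found in 0 of 309, against 0.27% of all and 0.277% in windows with 4 or more counts. No motif was searched outside these 250 bases, and a match is not evidence of binding.

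The excess of 129 counts was small in most of these windows. On the 129 allele the windows had a lowest, median and highest count of 2, 4 and 12 in replicate 1 and 2, 4 and 15 in replicate 2. On the CAS allele the same values were 0, 1 and 8, then 0, 2 and 10. Of the 552 windows, 449 had a smaller replicate difference of exactly 2, 80 of 3, 15 of 4, 4 of 5, 3 of 6 and 1 of 8. The selected windows therefore sit mostly at the edge of the rule. Just inside it lay 229 windows with a difference of exactly 2 in both replicates. Just outside lay 435 windows with 2 or more in replicate 1 and 1 in replicate 2, and 975 with 1 in replicate 1 and 2 or more in replicate 2. Differences were equal in both replicates in 269 windows, larger in replicate 2 in 206 and larger in replicate 1 in 77. The 129 columns summed to 44026 and 59812 over all windows and the CAS columns to 46128 and 59995, so replicate 2 carried more counts on both alleles. What 1 count stands for is not given in the sources used here, so the read depth behind each value is unknown.

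The selected windows made up 1.26% of the table, and the mirror set held 661 windows, or 1.5%. Differences of 2 or more in opposite directions were seen in 226 windows, 76 with 129 higher in replicate 1 and 150 with 129 higher in replicate 2. The full distribution is shown in the plot of the differences in both replicates.

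**Figure D1:**
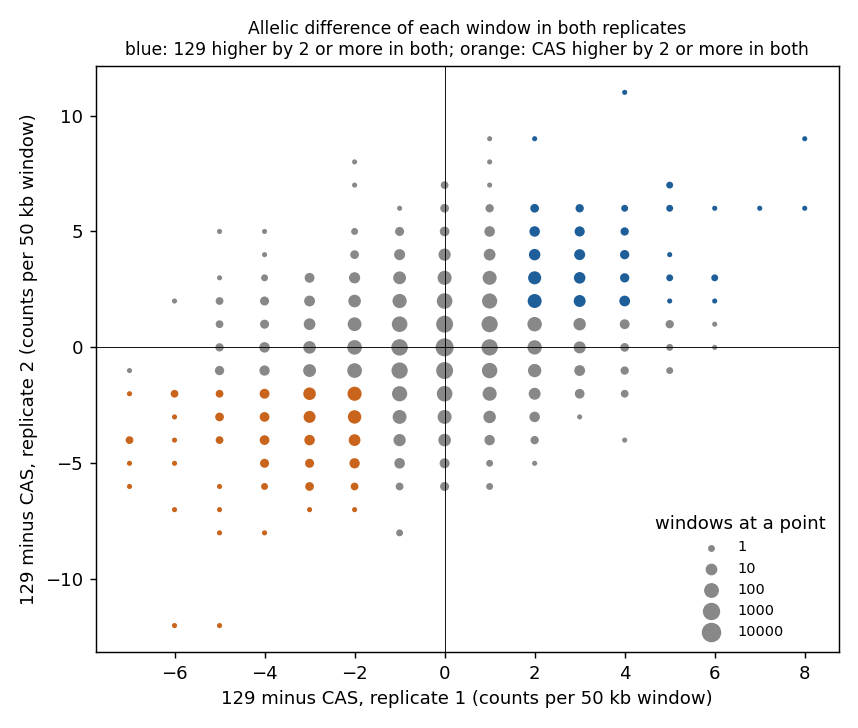
Each point is a combination of the difference 129 minus CAS in replicate 1 (horizontal axis) and replicate 2 (vertical axis), in counts per 50 kb window, and its size gives the number of windows there on a log scale. The 552 windows with 129 higher by 2 or more in both replicates are blue and the 661 of the mirror set are orange; most blue windows lie at the corner nearest the centre.

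Because the rule used both replicates, the repeatability of the 129 excess was described by choosing windows on 1 replicate and reading the other. Of 1590 windows with a difference of 2 or more in replicate 1, 987 (62.1%) were above 0 in replicate 2, 372 were at 0 and 231 (14.5%) were below. Among all windows 26% were above 0 in replicate 2 and 26.3% below. Only 34417 of the 43941 windows had a count in any column, and the others can be neither above nor below 0. The chosen windows always have counts, so shares among all windows are not matched to them for count. In the reverse direction, 3455 windows had a difference of 2 or more in replicate 2, and 1527 of them (44.2%) were above 0 in replicate 1, against 18.1% of all windows, while 548 (15.9%) were below, against 21.2%. The 129 share of the counts in the unused replicate was 58.9% (replicate 2) and 56.4% (replicate 1), against 49.9% and 48.8% over all windows. In the windows chosen by both replicates the shares were 72.1% and 71.1%, values that the selection itself raises.

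edgeR's quasi-likelihood test over all 34417 windows with a count called 0 windows at a Benjamini-Hochberg adjusted p under 0.05 (0% of those tested, so 0 of the 552). Without pairing the alleles of a replicate, it had 910 windows at an unadjusted p under 0.05. With the replicate as a block, edgeR had 65 such windows and also called 0. The DESeq2 Wald test, likewise without pairing, also called 0, with 11 windows at an unadjusted p under 0.05. This contrast is the one that chose the windows, so the calls are given as a description. With 4 columns of low counts these fits have little power, so 0 calls do not show that the alleles are equal.

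The largest shared excess lay beside B4galt6, which encodes a lactosylceramide synthase, on chromosome 18 (chr18:20750001-20800000). It had 8 and 9 counts on 129 and 0 on CAS in replicates 1 and 2. The next window to the left, over B4galt6 itself, had 7 and 7 on 129 against 4 and 3 and was also selected, and the next to the right had 3 and 2 against 0 and 1. The 129 counts were thus higher in both replicates across all 3 windows.

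Further windows of the first 20 held coding genes of different roles. The window holding the start of Col18a1, the collagen XVIII gene from which endostatin derives (chr10:77150001-77200000), had 9 and 9 on 129 against 1 and 3 on CAS. Its right neighbour, without a coding gene, had 3 and 4 against 0 and 0. Dse, which encodes the enzyme that converts chondroitin to dermatan sulfate (chr10:34200001-34250000), had 9 and 9 against 4 and 5. In these windows the 2 replicates hardly differed on 129, and the alleles did not overlap, a gap that the rule and the ranking favour.

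The window over Plekhf2, the gene of an endosomal FYVE-domain protein, and Ndufaf6, a complex I assembly factor gene (chr4:11000001-11050000), had 10 and 8 on 129 against 3 and 2. The Ston1 window (chr17:88600001-88650000), which holds the start of this endocytic adaptor gene, had 8 and 9 against 3 and 2. The Gtf2i window (chr5:134300001-134350000), with the start of the TFII-I transcription factor gene, had 7 and 10 against 2 and 4. Its neighbours did not share the direction. They had 0 and 0 on 129 against 3 and 0 on the left, and 3 and 1 against 3 and 3 on the right. Ncoa7, a nuclear receptor coactivator gene, had 5 and 7 against 1 and 1 in chr10:30700001-30750000, inside the gene and without its start. A window over Zbed5, Nupr1l and Vkorc1l1, the last a vitamin K epoxide reductase gene (chr5:129900001-129950000), had 5 and 5 against 1 and 1. Elovl6, which lengthens fatty acids, had 9 and 9 against 5 and 4 in chr3:129550001-129600000. Its left neighbour had 5 and 8 on 129 against 8 and 5, opposite in the 2 replicates, and its right neighbour 3 and 3 against 2 and 2.

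Several of the strongest windows held no coding gene. A window 71.2 kb from Map4k3, a kinase gene (chr17:80800001-80850000), had 9 and 11 on 129 against 3 and 5. Another, 80.8 kb from Tmem17, a gene of the ciliary transition zone (chr11:22600001-22650000), had 10 and 11 against 5 and 4, and its neighbours had at most 1 count in any column. Both overlap a long non-coding RNA gene. A window 11.6 kb from Sec31a, a gene of the COPII vesicle coat (chr5:100300001-100350000), had 5 and 6 against 1 and 0. On chromosome 12 a window 9.09 kb from Glrx5, which serves iron-sulfur cluster assembly (chr12:105050001-105100000), had 4 and 7 against 0 and 2. The window 72.8 kb from Tgfb2, a TGF-beta ligand gene (chr1:186500001-186550000), had 6 and 6 against 2 and 2, and its right neighbour 3 and 5 against 1 and 3. The most isolated of the 20 lay 1142 kb from Flrt2, an adhesion and axon guidance gene (chr12:94500001-94550000), with 4 and 6 against 0 and 1. In all 6 the 129 count exceeded the CAS count in both replicates by the rule's construction, and the spread between replicates on 129 was at most 3 counts.

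**Figure D2:**
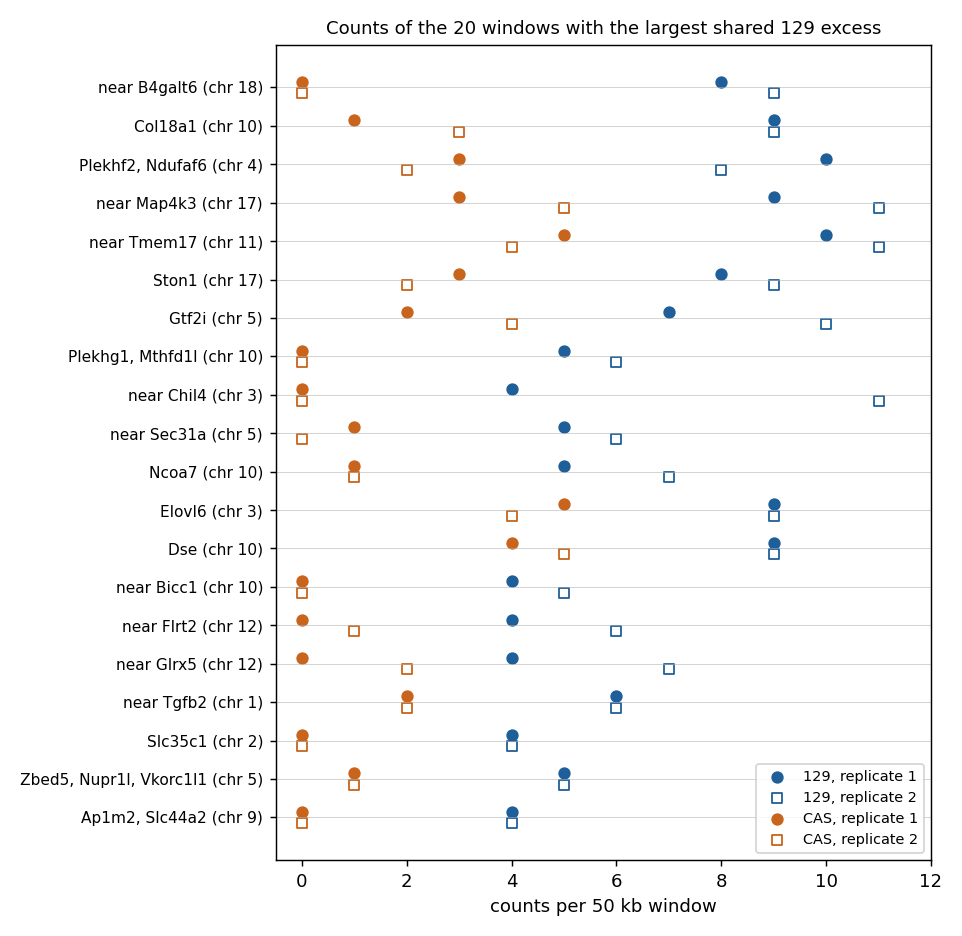
Counts per 50 kb window (horizontal axis) for the 20 windows ranked first by the smaller of their replicate differences, named by the coding gene they overlap or lie near. Blue is 129 and orange CAS, filled circles are replicate 1 and open squares replicate 2; the largest gap, beside B4galt6, runs from 0 on CAS to 8 and 9 on 129.

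The remaining chromosomes each contributed a leading window. On chromosome 6 it held the start of Cd9, a tetraspanin gene (chr6:125450001-125500000), with 7 and 9 on 129 against 4 and 3. On chromosome 7 it held the starts of 5 genes, among them Tgfb1, the gene of a TGF-beta ligand, and Exosc5, of the RNA exosome (chr7:25650001-25700000), with 5 and 6 against 2 and 1. On chromosome 13 it lay inside Pde4d, a cAMP phosphodiesterase gene (chr13:109600001-109650000), with 12 and 13 against 6 and 10. On chromosome 16 it lay in Bach1, a haem-responsive repressor gene (chr16:87700001-87750000), with 11 and 14 against 8 and 9. The Pde4d and Bach1 windows carried high counts on both alleles. On chromosome 15 the Rai14 window (chr15:10700001-10750000) had 6 and 9 against 4 and 3, and on chromosome 19 the window with the start of Pank1, a pantothenate kinase gene (chr19:34850001-34900000), had 4 and 7 against 2 and 1. The leading window of chromosome 14 was gene-poor, 536 kb from Slitrk1 (chr14:109450001-109500000), with 3 and 7 against 0 and 2.

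In 99 of the 552 windows (17.9%) CAS was at 0 in both replicates. Most of these held little on 129 as well: in 85 of them the lower 129 count was 2. The other 14 had 3 or more on 129 in each replicate, and the mirror set also held 14 windows of that kind with the alleles exchanged. Of the 14, 4 lay on chromosome 10 and 10 overlapped no coding gene. A count of 0 in a window of unknown read depth does not show that the CAS allele is closed.

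Those with a coding gene were few. The window with the start of Mthfd1l, a mitochondrial folate enzyme gene (chr10:3950001-4000000), had 5 and 6 on 129 against 0. A second window inside Mthfd1l (chr10:4050001-4100000) had 3 and 3 against 0. Over all 5 windows of the gene, the selected ones included, the sums were 11 and 12 on 129 against 1 and 2 on CAS. The windows of Slc35c1, which carries GDP-fucose into the Golgi (chr2:92450001-92500000), and of Ap1m2 with Slc44a2, a clathrin adaptor gene and a choline transporter-like gene (chr9:21300001-21350000), each had 4 and 4 against 0. The left neighbour of Slc35c1, with the circadian gene Cry2, had 4 and 4 against 0 and 1 and was selected too.

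Among those without a coding gene, the window 30.5 kb from Chil4 (chr3:106250001-106300000) had 4 and 11 on 129 against 0, the widest spread between replicates of the 14. A window 1.74 kb from Rad51b, a homologous recombination gene (chr12:79850001-79900000), and one 38.9 kb from Rmi1, of the complex that dissolves recombination intermediates (chr13:58450001-58500000), each had 3 and 3 against 0. A window 187 kb from Fancl, a DNA crosslink repair gene (chr11:26150001-26200000), had 3 and 4 against 0, as did windows near Noct, near Pofut2 and over immunoglobulin kappa V segments on chromosome 6. The window 22.8 kb from Bicc1, an RNA-binding protein gene (chr10:70850001-70900000), had 4 and 5 against 0.

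Coding genes were as frequent in the selected windows as in the mirror set. A coding gene overlapped 365 of the 552 windows (66.1%, exact Clopper-Pearson 95% interval 62 to 70.1%, counting error only). The share was 66.1% in the mirror set, 66.6% in the 21939 windows with 4 or more counts, the lowest sum the rule can pass, and 57.8% in all windows. The start of a coding gene lay in 183 windows (33.2%), against 29.8% in the mirror set and 35.1% of windows with 4 or more counts. A long non-coding RNA gene overlapped 218 windows (39.5%), against 34.5% and 31.5%. Windows with 3 or more coding genes numbered 33 (5.98%, against 5.45% and 8.46%), and the most in 1 window was 5. Pseudogenes overlapped 84 (15.2%, against 14.8% and 15.2%), microRNA genes 10 (1.81%, against 2.72% and 2.58%) and antigen receptor V segments 5 (0.906%, against 1.82% and 0.26%). No annotated gene of any type was present in 77 windows.

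Windows of the set that lacked a coding gene lay near one more often than other such windows. Their median distance to the nearest coding gene was 49.9 kb over 187 windows, with quartiles of 17.5 and 238 kb. In the mirror set the median was 104 kb over 224 windows, and in windows with 4 or more counts it was 134 kb over 7336. The gene lay within 50 kb in 50.3% of the 129-higher windows, 35.7% of the mirror set and 29.6% of windows with 4 or more counts. Genes of 500 kb or longer overlapped 25 windows (4.53%), against 47 (7.11%) of the mirror set and 7.01% of windows with 4 or more counts. Windows are not replicates, so these differences were not tested.

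The chance of meeting the rule depended on the summed count of the 4 columns. The set held 1.26% of windows with a sum of 4 to 7, 2.83% at 8 to 11, 4.2% at 12 to 15, 6.53% at 16 to 23 and 9.66% at 24 or more. The mirror set followed with 1.58%, 3.23%, 4.89%, 8.31% and 10.8%. Within each of these classes a coding gene was less frequent in the 129-higher windows than in all windows: 56.6% against 59.7%, 60% against 69.9%, 73.8% against 78.3%, 74.7% against 83.4% and 83.7% against 87.9%. In the mirror set the shares were 49.5%, 59.3%, 79.2%, 83.3% and 79.2%, so it lay below all windows in 4 of the 5 classes.

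**Figure D3:**
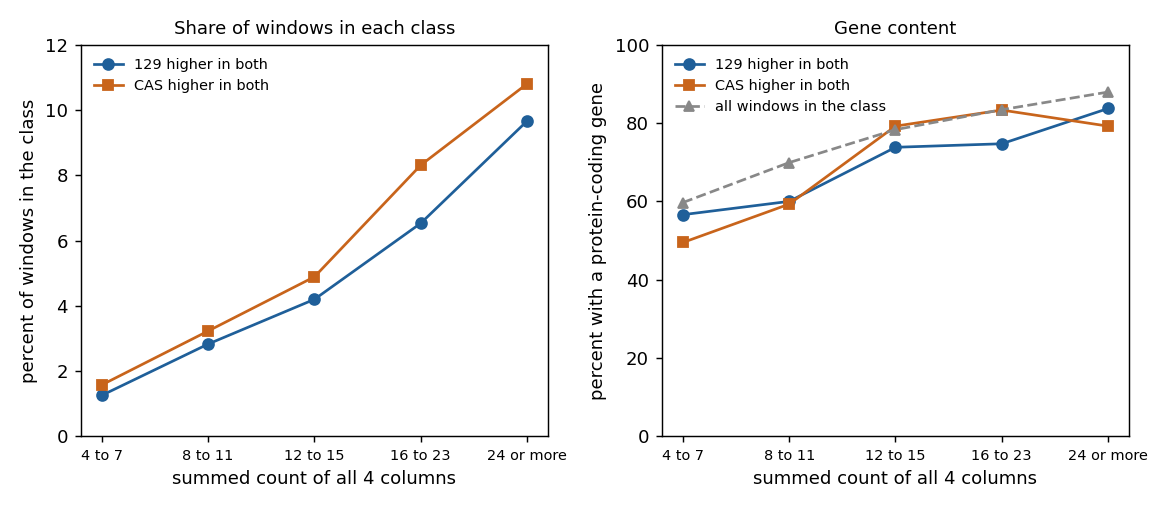
Left, the percent of windows of each class of summed count (horizontal axis) that were higher on 129 (blue) or on CAS (orange) in both replicates, from 1.26% to 9.66% for 129. Right, the percent with a protein-coding gene in the same sets and in all windows of the class (grey); the blue values lie below the grey ones in all 5 classes.

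The 552 windows overlapped 507 coding genes of 18577 in the table, and 23 genes had 2 selected windows each. These included the scaffold gene Akap12 (summed over its 3 windows, 14 and 17 counts on 129 against 6 and 8), the calcium-dependent kinase gene Camk1d (10 windows, 12 and 13 against 5 and 4) and the kinase gene Mapk6 (2 windows, 12 and 15 against 7 and 6). Utrn, the gene of utrophin, had 20 and 27 against 10 and 13 over 11 windows. These sums include the selected windows, which are both windows of Mapk6 and 2 of the 3 of Akap12, so the excess in them is largely set by the rule. In longer genes the sums of the alleles were closer: Robo2, an axon guidance receptor gene, had 32 and 73 on 129 against 32 and 63 over 32 windows, and Nav2 24 and 30 against 22 and 26 over 14. With the 604 genes of the mirror set 15 genes were shared, 2.96% of the first list and 2.48% of the second. The first list holds 507 and the second 604 of the 18577 genes, so an overlap of this size is not read as a result. Pde4d was among the shared genes, at 63 and 91 on 129 against 62 and 92 over its 27 windows.

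Cell type markers were read in the same counts. The windows of 25 pluripotency genes had a median sum of 15.5 counts over the 4 columns, against 3 over all windows, 4 over the windows of fibroblast markers and 12 over those of housekeeping genes, so a high median was not particular to them. Of the stem cell markers, Pou5f1 had 4 and 6 on 129 against 3 and 6, Sox2 2 and 5 against 5 and 3 over 2 windows, and Esrrb 19 and 22 against 20 and 28 over 4 windows. Of the fibroblast markers, Postn was at 0 in all columns and Thy1 had 1 and 1 on 129 against 0. Col1a1 had 2 and 2 against 1 and 1 over 2 windows, and Col1a2 had 1 and 4 against 2 and 0 in 1 window, so the collagen I genes were not at 0. These genes are only part of the fibroblast list. Of its 53 windows, 9 (17%) had a sum of 12 or more, against 65.8% of the pluripotency windows and 10% of all windows. The part of feeder DNA in the counts was not tested.

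Of the 38 pluripotency windows, 5 were in the 129-higher set (13.2%) and 2 in the mirror set (5.26%), against 1.26% and 1.5% of all windows. A share from 5 windows is uncertain. The median difference over the 38 was 0 in both replicates, as over all windows. Their 129 share was 51% and 51.6% in replicates 1 and 2, against 48.8% and 49.9% over all windows. In 11 of them 129 was above CAS in both replicates, and in 7 CAS was above 129. They carried much open chromatin: 25 had a sum of 12 or more, and at that level 16% of them (4 windows) and 5.55% of all 4413 such windows were in the set. The window of Nanog, a core transcription factor of naive stem cells, had 9 and 11 on 129 against 7 and 8 on CAS. The window of Dppa2, a chromatin-bound protein gene of early embryos, had 7 and 12 against 5 and 9. That of Tfap2c, a transcription factor of the naive state and germ line, had 4 and 4 against 2 and 0, and its right neighbour 3 and 4 against 1 and 1. Trim71, an RNA-binding regulator, shares with Ccr4 a window of 8 and 10 against 6 and 5. Zfp42, the marker also called Rex1, spans 2 windows that went opposite ways, with 9 and 15 against 7 and 9 in the first and 8 and 10 against 11 and 14 in the second. Summed over both, Zfp42 had 17 and 25 on 129 and 18 and 23 on CAS.

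Lists of other regulators had 1 to 4 selected windows each, too few to read a share against the 1.26% of all windows. Among chromatin modifier genes 2 of 87 windows (2.3%) were selected, those of Tet1, which oxidises methylated cytosine (6 and 6 against 4 and 4), and of Jmjd1c with Reep3, the former a histone demethylase family gene (5 and 5 against 3 and 2). Among replication and chromosome architecture genes there were 2 of 55 (3.64%): the cohesin gene Rad21 (5 and 5 against 3 and 2) and Hells, a chromatin remodeller gene (3 and 5 against 1 and 2). The window of the ligand gene Wnt3, shared with Nsf, was the 1 of 60 (1.67%) among signalling genes, at 2 and 2 against 0. Imprinted genes gave 4 of 111 (3.6%), of which 2 adjacent ones hold Plagl1, a zinc finger gene. They had 3 and 2 on 129 against 1 and 0, and 3 and 4 against 1 and 2. The other 2 hold Usp29 (5 and 5 against 1 and 2) and Sfmbt2, a Polycomb-related gene (4 and 3 against 1 and 1). Which parent gave which allele was not used, so nothing about imprinting follows. Lineage transcription factor genes had 0 of 44, fibroblast markers 0 of 53 and housekeeping genes 0 of 25, while the mirror set had 0, 1 and 2. At 1.26% of all windows, fewer than 1 would be selected in lists of this size, so a 0 in such a list is not a result.

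Among gene families, those with the most windows gave shares near that of all windows. Solute carrier genes had 12 of 655 windows (1.83%; mirror set 1.98%). One of them, over Slc9b2 and Slc9b1, genes of sodium-hydrogen exchangers, and the ketone metabolism gene Bdh2 (chr3:135300001-135350000), had 9 and 13 on 129 against 6 and 7. The start of Slc23a2, a vitamin C transporter gene, lay in a window with 5 and 5 against 0 and 2. Zinc finger genes had 6 of 435 (1.38%; mirror set 1.84%), including Zfp518b at 8 and 10 against 5 and 5, and Zfp605, which shares its window with 3 genes, at 7 and 7 against 5 and 5. Olfactory receptor genes had 4 of 439 (0.911% in both sets), led by Olfr875 at 4 and 5 against 1 and 1. Potassium channel genes had 3 of 297 windows (1.01%) and collagen genes 2 of 138 (1.45%). Glutamate receptor genes had 1 of 201 windows (0.498%) and cadherin genes 1 of 110 (0.909%). Those of Kcnab1 (6 and 5 against 3 and 2) and Cdh20 (5 and 5 against 2 and 2) had the same counts or nearly so in both replicates, and those of Col17a1 and Grik2 each had 2 and 3 against 0 and 1. No window was selected among 217 with vomeronasal receptor genes, 102 with genes named Rpl or Rps, 27 with keratin genes, 16 with clustered protocadherin genes and 13 with Hox genes.

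The windows were spread unevenly over the chromosomes. Chromosome 10 held 86, or 15.6% of the set and 3.49% of its own windows, and chromosome 2 held 72 (2.4%) and chromosome 17 held 33 (2.07%). Chromosome 8 held 5 (0.21%), chromosome 14 held 8 (0.383%) and chromosome 18 held 7 (0.407%). The mirror set was most frequent on chromosome 8 (3.02%) and chromosome 18 (2.97%), and least on chromosome 19 (0.393%) and chromosome 10 (0.487%). The windows in neither class leaned the same way: their 129 share was 58.6% and 54.5% on chromosome 10 and 45.6% and 42.5% on chromosome 8 in replicates 1 and 2. How far the level of a whole chromosome carries single windows past the rule was not tested.

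**Figure D4:**
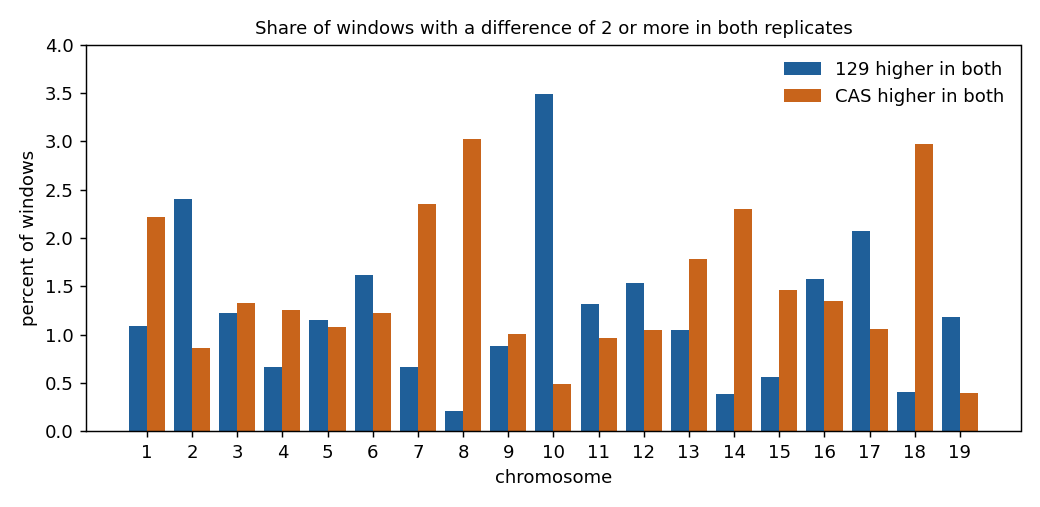
Percent of the windows of each chromosome (horizontal axis) with a difference of 2 or more counts in both replicates, higher on 129 (blue) or on CAS (orange). Blue is highest on chromosome 10 at 3.49% and lowest on chromosome 8 at 0.21%, where orange reaches 3.02%.

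Within chromosomes the windows gathered in places. Of 500 segments of 5 Mb, 278 held at least 1 selected window and 17 held 5 or more, together 112 windows. The fullest was 10 to 15 Mb of chromosome 10, with 12 of 99 windows and none of the mirror set, over Utrn, Epm2a, Sf3b5, Plagl1, Hivep2 and Adgrg6. Its counts summed to 99 and 135 on 129 against 51 and 70 on CAS. These sums include the 12 selected windows, so part of the excess in them is set by the rule. Segments with 10 of 97 windows and none of the mirror set lay at 105 to 110 Mb of chromosome 10 (Tmtc2, Mettl25, Ptprq, Syt1) and at 170 to 175 Mb of chromosome 2 (Zfp217, Bcas1, Mc3r, Tfap2c, Pmepa1). At the start of chromosome 10, 7 of the 30 windows below 5 Mb were selected (23.3%). Over its first 10 Mb the share was 9.38% (12 of 128) and beyond it 3.17% (74 of 2336). On chromosome 17, 65 to 70 Mb held 7 of 97, over genes that include Rab31, Lama1 and Epb41l3, beside 1 of the mirror set. The mirror set gathered in places too. It had 8 of 92 windows at 140 to 145 Mb of chromosome 1 and 8 of 100 at 90 to 95 Mb of chromosome 7.

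Most selected windows stood alone. There were 493 single windows, 22 runs of 2 adjacent windows and 5 runs of 3, so 59 of the 552 (10.7%, exact Clopper-Pearson 95% interval 8.24 to 13.6%) touched another. The mirror set had 586 single windows, 28 runs of 2, 5 of 3 and 1 of 4, or 11.3%. The median step from 1 selected window to the next was 1.9 Mb in both sets.

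The runs of 3 lay on 3 chromosomes. Over Plekhf2 and Ndufaf6 (chr4:10900001-11050000) the 129 counts were 18 and 18 against 5 and 5 on CAS, the same in both replicates. Over Shld1, a shieldin gene of DNA break repair (chr2:132600001-132750000), they were 17 and 19 against 7 and 11. The other 3 were on chromosome 10. Over Akap12 (chr10:4200001-4350000) they were 14 and 16 against 5 and 6, and over Sf3b5, a splicing factor gene, and Plagl1 (chr10:13000001-13150000) 11 and 10 against 3 and 4. Over Mettl25 and Ccdc59 (chr10:105800001-105950000) they were 11 and 17 against 3 and 6. The Mettl25 and Ccdc59 starts lie in the first of those windows, and the other 2 hold no coding gene.

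The windows next to the selected ones were not used by the rule and leaned to 129 in both replicates, by little. Over 999 windows 50 kb away that were in neither class, the 129 share was 51.9% in replicate 1 and 53.3% in replicate 2, a mean of 52.6% ± 0.981 (SD, n = 2). The level of the same chromosomes, from all windows in neither class, was 50.3% and 51.3%, so the neighbours lay 1.61 and 1.96 percentage points higher. At 100 kb the difference from the chromosome level was 0.485 and 0.567 points, and at 500 kb it was 0.241 and 0.236. Between them it varied without a steady fall, from -0.23 points at 200 kb in replicate 1 to 2.09 points at 250 kb in replicate 2. Around the mirror set the nearest windows had shares of 47% and 48.3%, or -0.956 and -0.743 points from their chromosomes. At 1000 kb the difference was 0.863 and 0.06 points, and at 2000 kb -0.557 and 1 points. These differences were not tested.

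The same lean was seen in single neighbours. Of the 999, 151 (15.1%) had 129 above CAS in both replicates and 67 (6.71%) had CAS above 129. Over all windows in neither class, on every chromosome, those shares were 7.93% and 8.61%. A gap in the same direction was also present farther away. At 1000 kb from a selected window the shares were 10.8% and 6.94% (mean sum of 4.46 counts), and at 2000 kb 10.5% and 7.68% (5.02). The neighbours at 50 kb carried more counts than all windows in neither class, a mean sum of 7.15 against 4.57. How far the chromosome or the count shapes these shares was not tested. Around the mirror set 9.08% of 1189 neighbours were above on 129 in both replicates and 14.1% above on CAS. On the grid, 14 of the 1104 sides of selected windows (1.27%) bordered a window that is absent from the table. That share was 1.51% in the mirror set and 2.79% over all windows. A further 108 sides (9.78%) bordered a window at 0 in every column, against 9.68% in the mirror set and 20.7% over all windows.

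**Figure D5:**
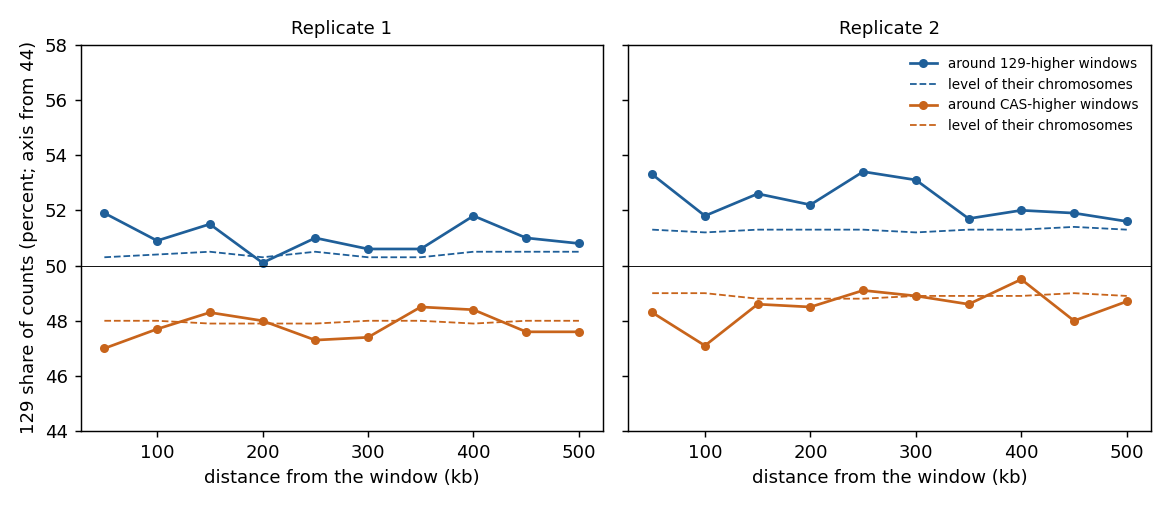
Share of counts from 129 (vertical axis, percent, starting at 44) in windows of neither class at 50 to 500 kb from a selected window (blue) or a window of the mirror set (orange), in replicate 1 (left) and replicate 2 (right). Dashed lines give the level of the chromosomes those windows lie on; the nearest blue points, at 51.9% and 53.3%, lie above their dashed line.

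At 10 places a 129-higher window bordered a CAS-higher one, so the direction turned within 100 kb. Mcm10, a replication initiation gene, lies across such a border on chromosome 2. The window it shares with Ucma had 3 and 4 on 129 against 1 and 1, and the next, shared with Optn, had 1 and 1 against 4 and 6. Across a border on chromosome 1 in Mogat1, a lipid synthesis gene, the counts were 3 and 4 against 1 and 2, then 1 and 3 against 5 and 7. Inside Nav2 they were 5 and 6 against 3 and 2 beside 0 and 1 against 2 and 3. Tenm4, a teneurin gene, had 7 and 7 against 5 and 5 beside 7 and 8 against 12 and 10. On chromosome 6, C3ar1 and Necap1 shared a window of 5 and 7 against 3 and 3, and the next, over Clec4a1, had 0 and 1 against 3 and 4. Further borders were the Zfp42 windows above, Rftn2 and a window beside Gli2 on chromosome 1, and a window beside Lrrc74a on chromosome 12. These 10 places were picked for opposite values in adjacent windows and are a description.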

How the data were processed

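ATAC-seq of 2 replicates of F121-6 was used, as 1 table of 43941 windows of 50 kb on chromosomes 1 to 19; the X chromosome was not analysed here. The deposited values are counts per window, allele and replicate (4 columns, with 0 further per-sample columns), whole numbers from 0 to 18 with no visible normalization. Per the submitters' processing notes, Bowtie2, MACS2, SAMtools, bedtools and the mm10 build were used; the sources used here do not give their versions or roles, the allele assignment or how windows were chosen. Columns were matched to samples by replicate number in the labels.

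Windows were selected by raw count difference. A window holds a gene if any base of a RefSeq gene (GRCm38.p6) is shared; exons, introns and UTRs were not separated, and coordinates are 1-based. Gene starts came from RefSeq promoters. Distances run from window edge to gene edge. Shares have exact Clopper-Pearson 95% intervals for counting error. The windows, gene lists and alternatives were chosen with earlier results of these data known. Windows named are the 20 ranked first by the smaller replicate difference, the first of each chromosome, those with 3 or more on 129 and 0 on CAS in both replicates, runs of 3, and up to 4 per gene list or family. Dppa2, genes with 2 selected windows, the borders between opposite windows and the fullest segments were chosen after their values were seen. Of the windows this rule names, 1 is not reported here.

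Allelic difference over all windows was fitted with edgeR 4.0.16 (glmQLFit and glmQLFTest, TMM scaling, windows with any count, Benjamini-Hochberg adjusted p under 0.05), with DESeq2 1.42.0 and limma 3.58.1 as alternatives in R 4.3.3. The replicate number pairs the alleles, since both come from 1 library, but only the alternative with a replicate block used this pairing. Deviations of the alleles of a replicate correlated at r = 0.291 across windows. Counts of the same allele were equal between replicates in 41.8% (129) and 41.4% (CAS) of windows with a count, so the columns are not copies of each other. Summaries used Python 3.11.15 with pandas 2.3.3.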

Additional observations from a re-analysis of the deposited data

How the results depend on the processing

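The number of windows depends on the rule. Against 552, a difference of 1 or more in both replicates gave 3939, 3 or more gave 103, and columns scaled to their mean total gave 260, since a difference of exactly 2 in replicate 2 then falls below 2. A single replicate gave 1590 to 3455, a construction that asks less. The share overlapping a coding gene, 66.1%, was 65.4% after scaling, 63.3% and 66% at differences of 1 and 3, and 60.2% to 72.8% with 1 replicate left out; it was 33.2% when the gene start had to lie in the window and 86.1% for genes of all types. The 129 share of adjacent windows, 52.6%, was 50.7% at a difference of 1, 54.8% at 3, 54% after scaling, 51.4% at 100 kb, 52% at 150 kb and 50.8% to 51.7% with 1 replicate left out. Without chromosome 10, an alternative added after seeing the data, it was 52%. The cause of these shifts was not tested. At a difference of 1 it was 49.8% in replicate 1 and 51.5% in replicate 2, on either side of 50%. The share of windows in runs, 10.7%, was 24.7% at a difference of 1, 15.5% at 3, 10.8% after scaling, 16.2% to 25.2% with 1 replicate left out and 8.15% without chromosome 10. Chromosome 10 held 15.6% of the windows, 14.6% after scaling and 8.94% to 13.9% with 1 replicate left out.

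edgeR called 0 windows with and without the replicate block (65 and 910 at an unadjusted p under 0.05), with DESeq2 size factors (283) and after a filter at a minimum count of 10, which left 40 windows (0). The DESeq2 Wald test called 0. With 4 columns of low counts these fits have little power, and the replicate block lowers it further. Their 0 therefore does not show that the alleles are equal. Limma on centred square roots called 78 of the 34417 windows with a count, of which 33 were higher on 129. Of those, 32 were among the 552, which this same contrast had chosen, so that overlap is a description only. Why that fit called more was not tested. Leaving out a replicate leaves 1 value per allele, so no test was run. Values of 0 to 18 counts of unknown read depth limit each window to a coarse ratio.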
